A study of Mus musculus with 6 samples.

Results

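The genes described here encode the proteins of the cytosolic ribosome or are copies of such genes that are named after them. They are the genes whose symbol is Rpsa or starts with Rpl, Rps or Rplp and a digit, without pseudogenes and the Rps6k kinases, wherever a probe set named that gene alone. This gave 47 of 12393 measured genes, 26 of the large and 21 of the small subunit, on 99 probe sets. Where a gene had several such probe sets, the brightest of them on average over the 6 arrays stood for it. The rule itself used no difference between genotypes, but the gene family was chosen with earlier results of these data known.

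The study profiled regulatory T cells (Treg), T cells that restrain immune responses, as magnetically separated CD4+CD25+ cells on 1-colour arrays. HDAC6 knockout mice, which lack a mostly cytoplasmic deacetylase, gave 3 arrays, and wild-type mice, labelled C57BL6, gave 3. The strain of the knockout, the deleted exons, the age of the mice and the purity of the cells were not stated in the labels. The samples are described as independent, but not whether each came from 1 mouse or a pool, so the p-values measure the spread between these samples.

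The ribosome decodes messenger RNA on its small subunit and joins amino acids on its large subunit, and each subunit is a scaffold of ribosomal RNA dressed with proteins. Messenger RNAs of ribosomal proteins begin with a run of pyrimidines, the 5′ terminal oligopyrimidine (TOP) tract, through which mTORC1 and the RNA-binding protein LARP1 adjust their translation and stability. T cells raise ribosome production when they leave quiescence and grow. In bulk samples such as these, fewer cells of a type and less RNA per cell cannot be told apart.

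The start sites below are shown because the tract is the sequence feature these messages are known to share. They come from RefSeq (GRCm38.p6), whose table held 42 of the 47 genes. Each run covers 15 bases before the annotated start and 15 from it, and capitals mark a C at the start with at least 4 pyrimidines after it.
Rps6: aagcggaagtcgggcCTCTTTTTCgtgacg
Rps10: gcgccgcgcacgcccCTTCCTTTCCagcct
Rps18: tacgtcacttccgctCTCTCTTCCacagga
Rpl35: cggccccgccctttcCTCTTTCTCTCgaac
Rpl38: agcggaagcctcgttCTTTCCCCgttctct
Rpl39l: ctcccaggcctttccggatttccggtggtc
Rps2: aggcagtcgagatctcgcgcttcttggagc

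On the minus strand lie Rps6 (chr4:86857353-86857382), Rps10 (chr17:27635230-27635259), Rps18 (chr17:33955651-33955680) and Rpl35 (chr2:39005117-39005146). On the plus strand lie Rpl38 (chr11:114668565-114668594), Rpl39l (chr16:10170213-10170242) and Rps2 (chr17:24720048-24720077). The first 5 show the tract, and Rpl39l and Rps2, which had the lowest differences of all members and of the brightly measured ones, had none at the annotated base. A tract began at the annotated start in 8 of the 42 genes (19.0%), against 2.67% of 17491 protein-coding genes. The letters CTTTC on the coding strand near the start were found in 26.2% of the 42 genes and in 4.43% of all.

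In the 300 bases around the start, CCGGAAG on either strand, a binding sequence of ETS-family factors, was found in 21 of the 42 genes and in 12.9% of all. The E-box CACGTG, which reads the same on both strands and is bound by MYC, was found in 9.52% and 8.91%. The 8 genes with a tract at the annotated start had a median log2 difference, knockout minus wild type, of -0.029, and the 34 without one had -0.028. The members with and without a tract at the annotated base thus had nearly the same median difference. In some of the 34, such as Rpl27a and Rpl7a, pyrimidines run across the annotated start without a C at that base. The split thus follows the start annotation and does not separate messages with a tract from messages without one.

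Ribosomal protein transcripts were a little lower in the knockout Treg, by 2.18% at the median, and no single member passed the test. Of 47 genes 38 were lower and 9 higher in the knockout, where 49.3% of all genes were lower. The median log2 difference was -0.032 over the members and 0.0019 over all genes. Genes with a mean log2 value of at least 6, as 45 of the members had, were lower in 56.3% of cases, with a median of -0.018. At an adjusted p under 0.05 (limma, Benjamini-Hochberg over all genes) 0 of 47 were called, beside 0.169% of all genes, and the smallest adjusted p was 0.186. At an unadjusted p under 0.05 there were 6 of 47, 4 lower and 2 higher, beside 11.8% of all genes. Most differences were small: 38 of 47 genes differed by less than 0.1 on the log2 scale and 6 by more than 0.2.

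**Figure D1:**
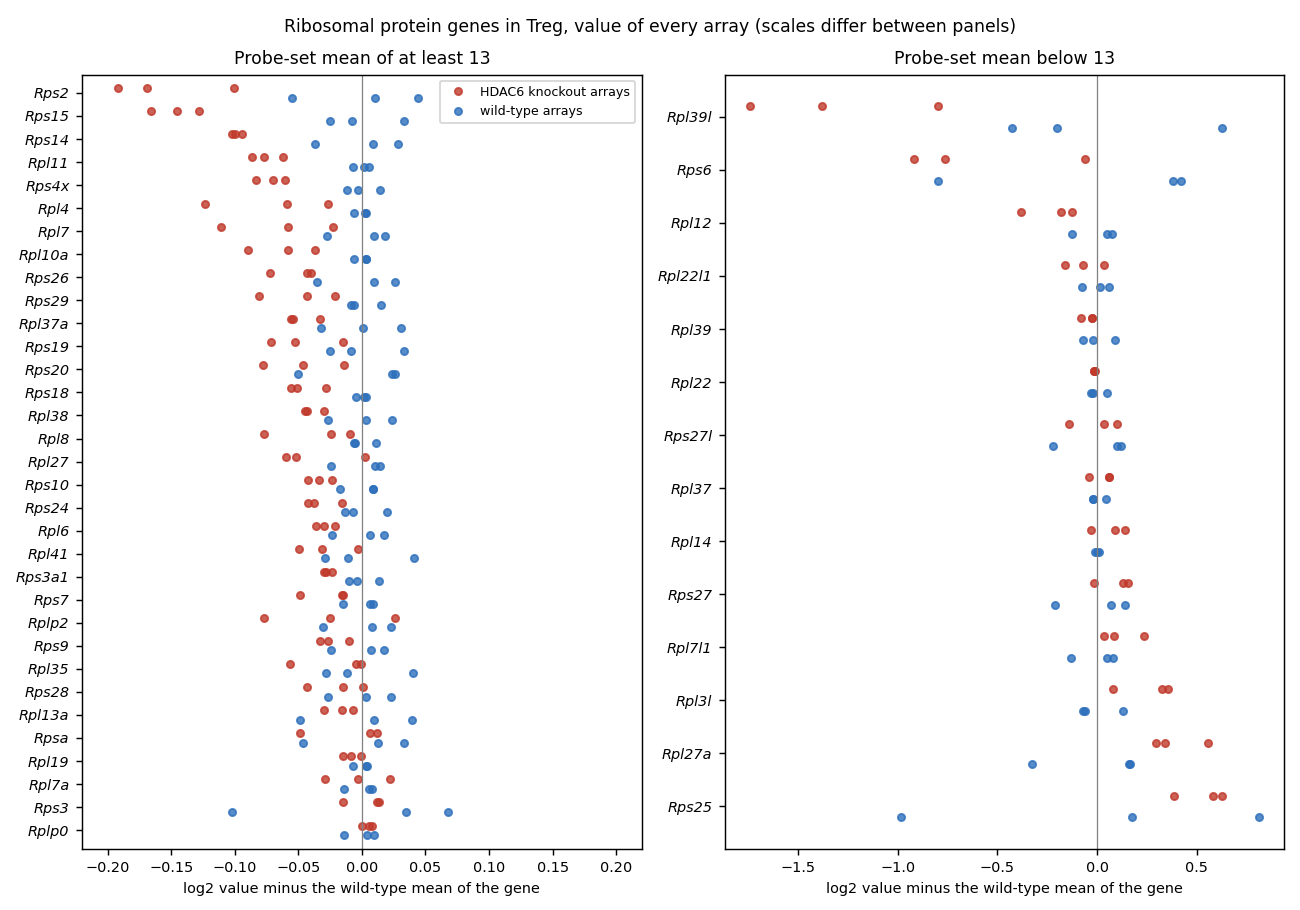
Log2 value of every array minus the gene's wild-type mean, for the 33 genes read from probe sets with a mean of at least 13 (left) and the 14 others (right), with knockout arrays in red above wild-type arrays in blue. On the left, 32, 28 and 29 of the 33 genes lie below the wild-type mean in the 3 knockout arrays, and on the right, on a wider scale, the genotypes spread both ways.

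Members differed by where their probe set lay on the arrays' scale, here split at a mean log2 value of 13, a limit chosen after the values were seen. For 33 genes the mean lay between 13.30 and 14.25, close to the highest value on any array (14.51), where array signals can understate differences. Of these 33 genes 31 were lower in the knockout, with a median of -0.036 and a range from -0.15 to 0.0045. The other 14 genes were 7 lower and 7 higher, with a range from -1.31 to 0.53. The within-genotype SD had a median of 0.024 in the 33 genes and 0.13 in the 14, against 0.11 over all genes.

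In 19 of 47 genes (40.4%) every knockout array lay on the same side of every wild-type array, 18 of them lower and 1 higher in the knockout. Over all genes 18.6% did not overlap in this way, and 10.3% did so with the knockout lower, while among genes with a mean of at least 6 the share without overlap was 24.1%. Bright probe sets of other genes showed a like share: 16 of the 33 bright members (48.5%) did not overlap, all lower, and 12 of 27 other genes that bright (44.4%), 7 lower and 5 higher. Those 27 genes were 17 lower and 10 higher, with a median of -0.017. When each array was centred on its own median, 10 of 47 members (21.3%) did not overlap, against 17.7% of all genes. After quantile normalization between arrays 16 of 47 (34.0%) did not overlap, against 18.4% of all genes.

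**Figure D2:**
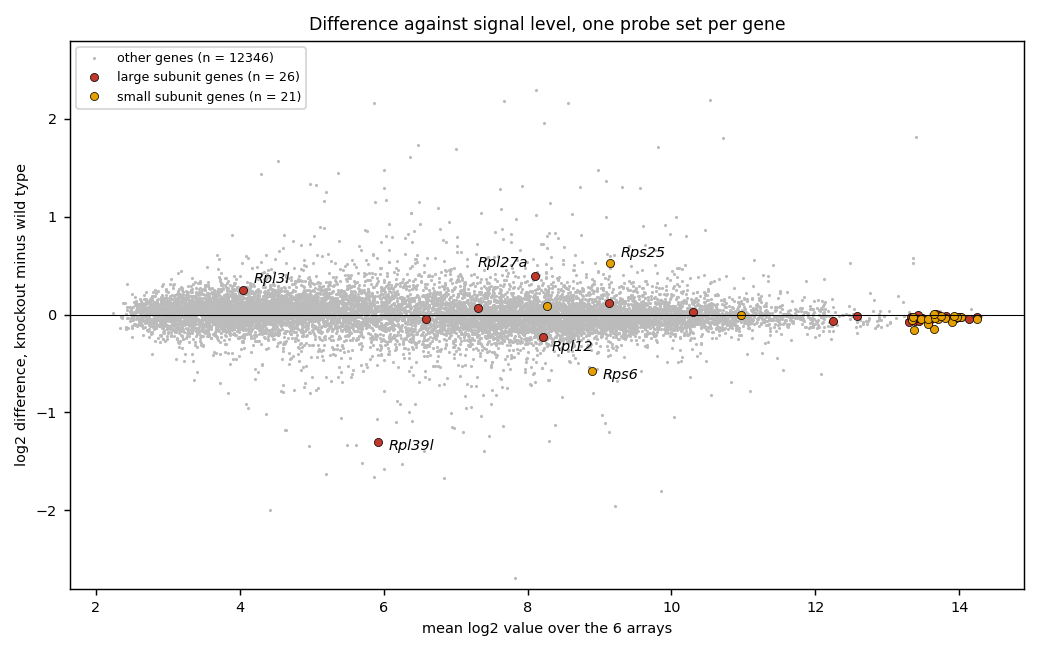
Log2 difference, knockout minus wild type, against the mean log2 value over the 6 arrays, with each gene as a point: large subunit genes in red, small subunit genes in orange and the other 12346 genes in grey. Most members crowd at the right end near zero, and Rpl39l, Rps6, Rps25, Rpl27a, Rpl3l and Rpl12 stand away from them at lower signal.

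All 3 knockout arrays showed the small shift. The median member lay at -0.028, -0.024 and -0.036 in the knockout arrays relative to its wild-type mean, against -0.0035, -0.0085 and 0.013 in the wild-type arrays, so the genotypes did not overlap on this summary. Over all genes the same summary was -0.026, 0.0021 and 0.019 in the knockout arrays, against -0.0092, -0.0010 and 0.012 in the wild-type arrays. In knockout replicate 1 the members' shift was thus near that of all genes, and in replicates 2 and 3 the members lay lower than all genes. Beside other genes with a mean of at least 13, knockout replicate 3 set the members little apart. There those genes lay at -0.036 and the members that bright at -0.040. In knockout replicates 1 and 2 the other bright genes lay at 0.0035 and -0.0064, and the bright members at -0.032 and -0.026. Below their wild-type mean were 39, 34 and 37 of the 47 members in the 3 knockout arrays, 31 of them in every one.

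**Figure D3:**
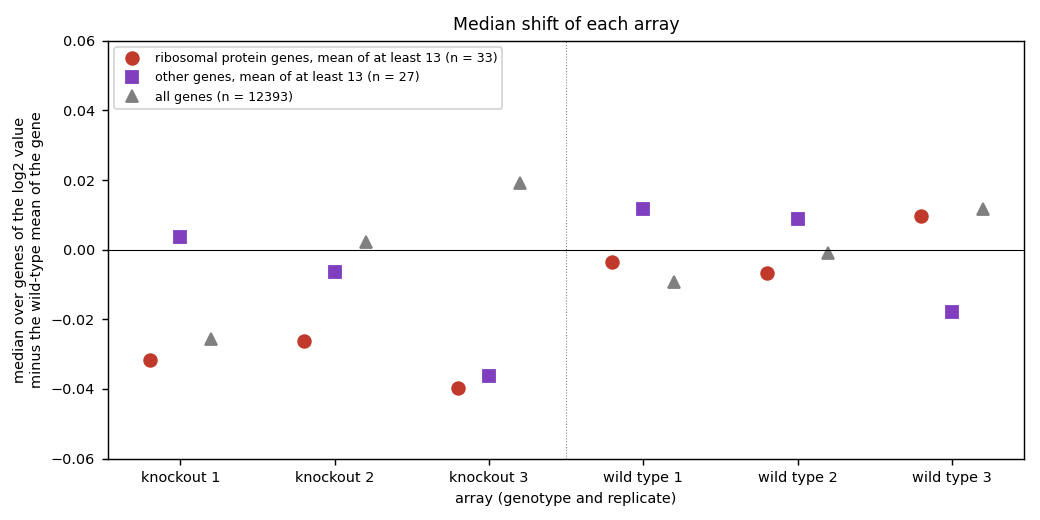
Median over genes of the log2 value minus the gene's wild-type mean, by array, with knockout arrays on the left: ribosomal protein genes with a mean of at least 13 (circles, n = 33), other genes that bright (squares, n = 27) and all genes (triangles). The circles lie at -0.032, -0.026 and -0.040 in the knockout arrays and at -0.0035, -0.0068 and 0.0097 in the wild-type arrays. The squares lie at 0.0035, -0.0064 and -0.036 in the knockout arrays and at 0.012, 0.0088 and -0.018 in the wild-type arrays.

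Among small subunit genes 18 of 21 were lower in the knockout, with a median of -0.034. Rps15, a protein of the subunit's head near the decoding site, read 13.58, 13.60 and 13.56 in the knockout, against 13.72, 13.70 and 13.76 in wild type. The genotypes did not overlap, and the difference was -0.15 (SE 0.059, 95% interval -0.29 to -0.0072, limma's adjusted p = 0.395). Rps2, which lies at the messenger RNA entry channel, read 13.35, 13.28 and 13.26 in the knockout, against 13.49, 13.46 and 13.39 in wild type, again without overlap (-0.15, SE 0.064, limma's adjusted p = 0.418). Rps14, whose loss in human bone marrow impairs red cell formation, read 13.51, 13.51 and 13.51 in the knockout, against 13.57, 13.64 and 13.62 in wild type (-0.099, SE 0.059, limma's adjusted p = 0.573). These were the lowest differences of the brightly measured members, each with separate genotypes, and none passed.

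Rps4x is encoded on the X chromosome, as Hdac6 is, and averaged 13.87 ± 0.011 in the knockout, against 13.94 ± 0.013 in wild type (SD, n = 3 each). Its genotypes did not overlap, with a difference of -0.071 and an adjusted p of 0.679 by limma. Rps3, which also binds NF-κB in human T cells, differed by 0.0034 (95% interval -0.16 to 0.17), with wild type replicate 2 at 13.54 and the 5 other arrays from 13.63 to 13.71. Rpsa, known also as a laminin receptor, read 13.70, 13.75 and 13.76 in the knockout, against 13.78, 13.70 and 13.76 in wild type, with overlap, and differed by -0.010 (95% interval -0.16 to 0.14). The intervals of Rps3 and Rpsa include differences of either sign that exceed the members' median.

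Rps6, the protein that S6 kinase phosphorylates downstream of mTORC1, scattered within both genotypes. The brighter of the probe sets that name Rps6 alone read 8.43, 9.13 and 8.27 in the knockout, against 8.39, 9.57 and 9.61 in wild type. Wild type replicate 1 lay among the knockout arrays, so the groups overlapped, and the difference was -0.58 (SE 0.36, limma's adjusted p = 0.593). It ran from -0.98 to -0.37 when 1 array was left out, lowest without wild type replicate 1. A dimmer probe set of the gene differed by 0.13. Another 9 probe sets name Rps6 together with its pseudogene Rps6-ps4 and differed by -0.20 to 0.013, with a median of -0.019. The brightest of these 9 had a mean of 14.30, against 8.90 for the probe set used here, and differed by -0.012.

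Rps25, which some viral internal ribosome entry sites need, had the highest difference of any member, and it rested on wild type replicate 2. On its own probe set the gene read 9.26, 9.46 and 9.50 in the knockout, against 9.05, 7.89 and 9.68 in wild type. That wild-type array stood apart from the 5 others, which lay between 9.05 and 9.68. The difference was 0.53 (SE 0.40, limma's adjusted p = 0.658) with all arrays, 0.040 without wild type replicate 2 and 0.94 without wild type replicate 3. The 1 probe set that names Rps25 with other genes was brighter, with a mean of 12.92, and differed by -0.024.

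Large subunit genes were lower in the knockout in 20 of 26 cases, with a median of -0.029. Rpl11, which joins the 5S RNA particle and restrains MDM2 when ribosome assembly is disturbed, read 13.25, 13.28 and 13.26 in the knockout, against 13.34, 13.34 and 13.33 in wild type. Every knockout array was lower than every wild-type array, with a difference of -0.075 (SE 0.057, adjusted p = 0.659 by limma). Rpl10a, a protein of the L1 stalk, averaged 13.41 ± 0.027 in the knockout, against 13.47 ± 0.0057 in wild type (SD, n = 3 each), also without overlap (-0.061, adjusted p = 0.731 by limma).

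Proteins of the acidic stalk, which recruits elongation factors, differed little. Rplp0, its base, read 13.67, 13.67 and 13.68 in the knockout, against 13.65, 13.67 and 13.68 in wild type, a difference of 0.0045 (95% interval -0.13 to 0.14). Rplp2, at its tip, read 14.23, 14.29 and 14.18 in the knockout, against 14.27, 14.23 and 14.28 in wild type, with overlap and a difference of -0.025 (95% interval -0.17 to 0.12). Rpl38, required for translation of Hox messages in mouse embryos and shown above with its tract, differed by -0.039 without overlap (95% interval -0.18 to 0.098). Rpl13a, which can leave the ribosome to silence inflammatory messages in human myeloid cells, differed by -0.018 with overlap (95% interval -0.16 to 0.12).

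Rpl12, at the foot of the stalk, read 7.95, 8.20 and 8.15 in the knockout, against 8.40, 8.20 and 8.38 in wild type on its own probe set. Replicate 2 of each genotype had nearly the same value, and the genotypes just failed to overlap. The difference was -0.23 (SE 0.095, adjusted p = 0.41 by limma). A pair of brighter probe sets that name Rpl12 with other genes (means 13.52 and 13.54) differed by -0.070 and -0.032. Rpl27a, a protein of the large subunit's core, read 8.20, 8.46 and 8.25 in the knockout, against 8.07, 7.58 and 8.07 in wild type. It was the 1 member higher in the knockout without overlap, by 0.40 (SE 0.15, adjusted p = 0.361 by limma), or 0.23 without wild type replicate 2. The 1 probe set that names Rpl27a with other genes was brighter, with a mean of 13.63, and differed by 0.010.

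Of the 14 members with a mean below 13, 8 were also named on probe sets together with other genes, which the selection left out. Rpl14 and Rpl37, both of the large subunit, differed by 0.067 and 0.026 on their own probe sets, with overlap. On the shared probe sets Rpl14 differed by -0.088 to -0.062 and Rpl37 by -0.058 to -0.0034. Rpl14 averaged 7.31 on its own probe set and 12.51 to 13.14 on the shared ones. Rpl37 averaged 10.3 on its own and 7.23 to 13.78 on the shared ones. Own and shared probe sets of these genes thus differed in sign, and which transcripts each detects was not examined here.

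Paralogues are copies of a ribosomal protein gene, and some of them can take its place in certain tissues. Of the paralogues, 1 held the lowest difference of all members. Rpl39l, the testis-enriched copy of the exit tunnel protein Rpl39, read 5.19, 4.83 and 5.77 in the knockout, against 6.37, 7.20 and 6.15 in wild type. All knockout arrays were lower than all wild-type arrays, with a difference of -1.31 (SE 0.32, 95% interval -2.07 to -0.55) or 2.47-fold. It did not pass over all genes (adjusted p = 0.186 by limma), and it ran from -1.56 to -0.99 when 1 array was left out. The signal of Rpl39l was weak: its mean of 5.92 over the 6 arrays lay below the median of every array (6.22 to 6.27). Rpl39 itself, X-linked and on a probe set of its own, lay at 6.53 to 6.59 in the knockout, against 6.54 to 6.70 in wild type, a difference of -0.042 with overlap. The 1 probe set that names Rpl39 with another gene was far brighter, with a mean of 13.91, and differed by 0.0006.

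In the other paralogues the groups overlapped. Rpl22, needed for the development of αβ T cells in mice, averaged 12.57 ± 0.0024 in the knockout, against 12.58 ± 0.043 in wild type (SD, n = 3 each), a difference of -0.014. Its copy Rpl22l1 averaged 12.22 ± 0.098 in the knockout, against 12.28 ± 0.069 in wild type (SD, n = 3 each), a difference of -0.066. Both differences were smaller than the larger of the 2 within-genotype SDs. Rps27l, a copy of Rps27 that p53 induces in human cells, differed by -0.0016, and Rps27 by 0.090 on its own probe set (mean 8.27). The 1 probe set that names Rps27 with another gene had a mean of 14.09 and differed by -0.022. Rpl7l1 differed by 0.12, and Rpl7, of the large subunit, by -0.064. Rpl3l, a muscle form of Rpl3, read 3.998, 4.276 and 4.247 in the knockout, against 3.851, 3.857 and 4.051 in wild type, a difference of 0.25 (adjusted p = 0.387 by limma) near the bottom of the scale.

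Over probe sets the direction was the same. Of the members' 99 probe sets 77 were lower in the knockout, where 50.4% of all probe sets were, and 26 (26.3%) did not overlap, where 17.2% of all did not. The 23 genes with several probe sets had all of them lower in 13 cases, all higher in 2 and both signs in 8. Names ending in _a_at, _s_at or _x_at, which mark probes that can match several transcripts, made up 70 of the 99, so signal from paralogues and pseudogenes may enter these values. Of 102 probe sets that name a ribosomal protein gene together with others, 86 were lower and 16 higher, with a median of -0.040. None of the 102 passed (smallest adjusted p 0.231 by limma), and 4 had an unadjusted p under 0.05, beside 2403 of all 22626 probe sets.

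Genes that work with the ribosomal proteins were examined in 10 lists, and 0 of their genes passed over all genes by limma. Elongation factors and other messages known to carry a TOP tract were lower in the knockout in 16 of 17 cases, with a median of -0.059 and 0 at an unadjusted p under 0.05. Eif3e, a subunit of an initiation factor, read 12.59, 12.56 and 12.55 in the knockout, against 12.66, 12.69 and 12.70 in wild type (-0.12, adjusted p = 0.506 by limma). Hnrnpa1, an RNA-binding protein, differed by -0.13 without overlap, and Eef1b2, an exchange factor for elongation, by -0.11 with overlap. Fau, which encodes a ribosomal protein fused to a ubiquitin-like protein, was the 1 such fusion measured and differed by -0.057.

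Ribosome biogenesis factors were lower in 48 of 58 cases, with a median of -0.072, and 6 had an unadjusted p under 0.05, no larger a share than the 11.8% of all genes. The rRNA methylase Dimt1 read 7.50, 7.58 and 7.43 in the knockout, against 7.75, 7.85 and 7.79 in wild type, without overlap (-0.29, SE 0.069, adjusted p = 0.174 by limma). Ltv1, which helps to mature the small subunit, differed by -0.34 (adjusted p = 0.189 by limma). The helicase Ddx10 differed by -0.26 (adjusted p = 0.189 by limma). Genotypes did not overlap in 17 of the 58 genes (29.3%), Ltv1 and Ddx10 among them, against 18.6% of all genes and 24.1% of genes with a mean of at least 6.

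Genes of rRNA transcription went both ways, 6 lower and 6 higher, with 2 of 12 at an unadjusted p under 0.05, beside 11.8% of all genes. The termination factor Ttf1 read 7.59, 7.72 and 7.69 in the knockout, against 7.18, 7.15 and 6.50 in wild type, higher in the knockout without overlap (0.72, SE 0.18, adjusted p = 0.188 by limma). The selectivity factor subunit Taf1a differed by -0.26 and the polymerase subunit Polr1b by -0.13. Of 19 regulators around MYC, mTORC1 and LARP1, 7 were lower and 12 higher, 0 at an unadjusted p under 0.05. Myc, a transcription factor that drives ribosome production, read 9.52, 9.57 and 9.44 in the knockout, against 10.10, 9.52 and 9.82 in wild type. Its groups overlapped through wild type replicate 2 (-0.31, SE 0.14, adjusted p = 0.465 by limma). Rragc, a GTPase that brings mTORC1 to the lysosome, differed by -0.19, and Eif4ebp1, a repressor of cap-dependent translation that mTORC1 inactivates, by 0.15.

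**Figure D4:**
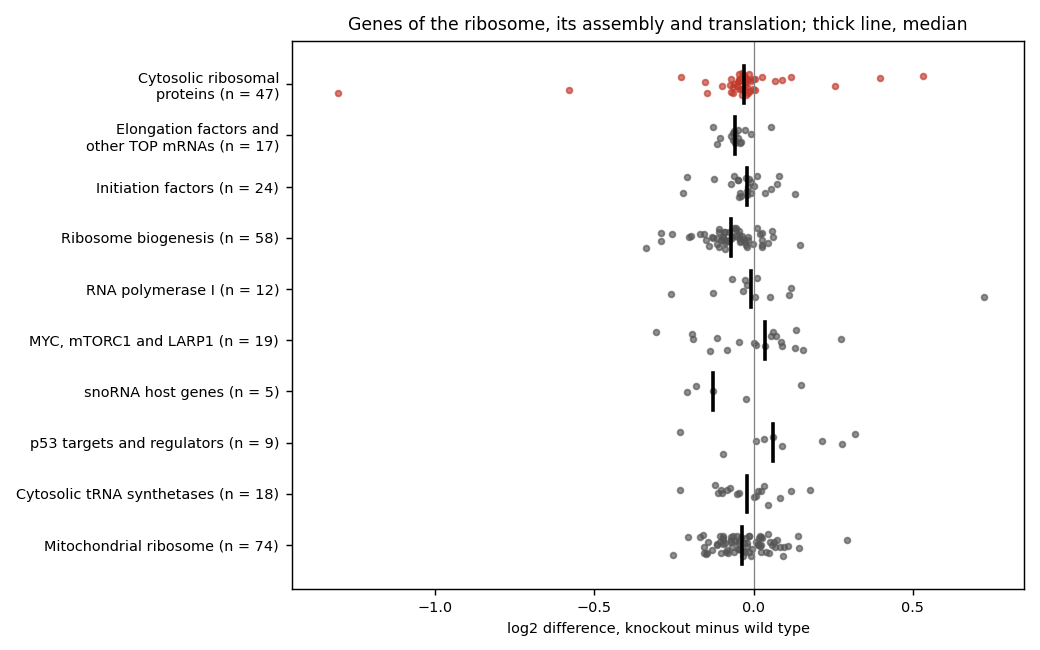
Log2 difference, knockout minus wild type, of each gene (points) in the cytosolic ribosomal proteins (top, red) and in 9 lists of related genes (grey), with the median as a thick line. Medians lie left of zero for ribosomal proteins (-0.032), TOP messages (-0.059) and biogenesis factors (-0.072). They lie right of it for the MYC, mTORC1 and LARP1 list (0.037) and for targets and regulators of p53 (0.061). All other lists also have medians left of zero, from -0.0095 for RNA polymerase I to -0.13 for snoRNA host genes, with the mitochondrial ribosome at -0.037.

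Hosts of snoRNAs, whose introns supply guides for rRNA modification, were 4 lower and 1 higher, with a median of -0.13. Snhg5 differed by -0.18 and Snhg1 by -0.21, without overlap. Gas5 differed by 0.15 with overlap, but by -0.20 on a probe set without a suffix and by -0.032 without wild type replicate 1, so its sign was not settled. Initiation factors were 17 lower and 7 higher with a median of -0.021, among them Eif5 at -0.21, Eif3m at -0.22 and Eif4a2 at -0.13. Proteins of the mitochondrial ribosome were 49 lower and 25 higher with a median of -0.037. Mrps6 (0.29), Mrps2 (-0.25) and Mrpl10 (-0.17) did not overlap, nor did 16 others of the 74. That share, 25.7% in all, stood against 18.6% of all genes and 24.1% of genes with a mean of at least 6. At an unadjusted p under 0.05 there were 6 of the 74, a smaller share than the 11.8% of all genes. Cytosolic tRNA synthetases were 9 lower and 9 higher, with Lars at -0.23, Gars at -0.12 and Nars at 0.18.

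Among targets and regulators of p53, the factor that responds to failed ribosome assembly, 2 of 9 were lower and 7 higher in the knockout. The stress-induced Sesn2 read 6.48, 6.41 and 6.46 in the knockout, against 6.21, 6.16 and 6.15 in wild type, without overlap (0.28, SE 0.061), and did not pass. Btg2, an inhibitor of proliferation, differed by 0.32, and the cell cycle inhibitor Cdkn1a by 0.21, both with overlap. Without knockout replicate 1, or without wild type replicate 3, 4 of the 9 were lower.

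Array medians lay between 6.22 and 6.27. Hdac6 read 7.54, 7.86 and 7.64 in the knockout, against 8.54, 8.23 and 8.42 in wild type (-0.71, adjusted p = 0.0775 by limma), and whether its probes lie in the deleted part was not examined here. The 8 listed Treg markers were all measured, 6 higher and 2 lower in the knockout, with a mean level of 10.40 to 10.47 in the knockout arrays, against 10.33 to 10.42 in the wild-type arrays. All 6 measured plasma cell markers were higher in the knockout and 1, Igha, passed, with a mean level of 10.35 to 10.70 in the knockout arrays, against 9.84 to 9.96 in the wild-type arrays. Of the 4 measured B cell markers 2 were higher and 2 lower in the knockout, with mean levels of 7.92 to 8.41 in the knockout, against 8.31 to 8.62 in wild type. The largest difference among these 4 was that of Ms4a1 (-1.13). The part of these cells in the ribosomal protein values was not tested.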

How the data were processed

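The authors deposited log2 values for 22690 probe sets on 6 arrays, made with RMA per the submitters' processing notes, which give no version. That the scale is log2 was taken from the range of the values. After 64 control probe sets were left out, 20380 of 22626 carried 1 symbol in the platform annotation, 691 several and 1555 none. Symbols were updated through gene IDs to RefSeq (GRCm38.p6) for 20351, which gave 12393 genes.

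Knockout was compared with wild type over all genes by the linear model of limma 3.58.1 (R 4.3.3; lmFit, eBayes), with genotype as its only term, two-sided, and Benjamini-Hochberg adjustment at 0.05. SE and intervals are moderated and thus lean on the spread of all genes. The number of arrays limits the precision. On simulated data for this comparison with 12393 genes, the fit recovered 50.8% of log2 changes of 0.5, 92.2% of changes of 1 and 99.2% of changes of 2. Changes below 0.5, the size of most members' differences, were not simulated. The simulated spread did not depend on signal level, so these rates do not apply to the members' small differences.

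Members and lists were chosen with earlier results of these data known, and no list was tested as a set. Genes named with values are the 8 members of smallest p in each direction, paralogues with their partners, members with special roles or on the X chromosome, and the 3 genes of smallest p in each related list. The alternatives tried included normalization, moderation, the choice of probe set and leaving out each array. Plots used matplotlib 3.10.9 (Python 3.11.15).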

Additional observations from a re-analysis of the deposited data

How the results depend on the processing

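No ribosomal protein gene and no gene of the 10 related lists passed under any setting run for them: a block on the replicate number, renormalization by quantiles, centring on array medians, a trended and robust prior, weighted arrays, genes with a mean of at least 6, the mean of a gene's probe sets, probe sets without a suffix, no moderation, a threshold of 0.1, each array left out and, added after seeing the data, a fit over probe sets. A limit at a mean of 13, also added then, was run for the members. Without moderation 10 of 47 members had an unadjusted p under 0.05, all lower, beside 1353 of all 12393 genes, 771 of them lower. With 1 array left out, 34 to 38 members were lower, the median ran from -0.039 to -0.027, and 2 to 4 genes of the p53 list were lower. In those settings 21 to 27 members did not overlap. Fewer arrays overlap less, and the share over all genes in those settings is not given here. Centring brought the members without overlap to 10. Over all genes the 21 calls became 12 with the replicate block, 106 with the trended and robust prior, 49 with array weights, 61 at a mean of at least 6, 0 without moderation (1353 at an unadjusted p under 0.05) and 3 to 28 with 1 array left out. Deviations of same-numbered arrays correlated at 0.21, -0.097 and 0.023, and only for replicate 1 was the same number the best match. With 3 arrays per genotype these correlations cannot settle whether the replicate numbers pair the arrays. Under the replicate block 38 members were lower, with a median of -0.032, and 0 passed.

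Signs turned in 20 gene-level comparisons, while 913 kept theirs. With 1 array left out, the difference ran from -0.014 to 0.16 for Rps27, -0.0023 to 0.0094 for Rplp0, -0.029 to 0.011 for Rpl22, -0.078 to 0.0027 for Rpl39, -0.042 to 0.0021 for Rpl13a, -0.11 to 0.068 for Rps27l, -0.051 to 0.00040 for Rplp2, -0.033 to 0.0090 for Rpsa, -0.048 to 0.037 for Rps3 and -0.032 to 0.30 for Gas5. Rps27l was 0.0015 with quantile normalization, 0.0011 with median centring and 0.023 as the mean of its probe sets. Rpsa was 0.0012 with array weights, and Gas5 was -0.20 on a probe set without a suffix. The cause was not tested.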
